A study of Caenorhabditis elegans with 2 samples.

Results

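The 6 genes described here, unc-30, unc-55, alr-1, irx-1, hbl-1 and lin-14, encode transcription factors of the fate and synaptic remodelling of the D-type motor neurons of Caenorhabditis elegans. They were taken by name, as 6 of the 19973 nuclear protein-coding genes of the annotation, by a rule that uses no measured value. The set was nevertheless chosen with earlier results of these data known. UNC-30 was mapped by chromatin immunoprecipitation followed by sequencing (ChIP-seq) in whole L1 larvae of strain OP395, of mixed sex. Chromatin came from all cells of the larvae, of which D-type neurons are few. The strain carries the integrated transgene wgIs395, which gives UNC-30 fused at its C terminus to GFP and FLAG, and the unc-119 mutation tm4063 on chromosome III. There is 1 group of 2 libraries, biological replicates 1 and 2, and no other stage, strain or control list was analysed here. The labels name the antibody only by its target, unc-30, and do not say which sequence drives the transgene. Sequence from the unc-30 part of the transgene and from the gene's own locus has the same place in the reference, so the lists cannot tell them apart. The files hold a list of 30000 candidate regions (peaks and background together) for each replicate and for both pooled, and a list of 125 thresholded peaks, which equal the 125 highest pooled regions. For each gene, regions were taken with the summit from 15000 bp upstream of the outermost annotated 5′ end to the 3′ end, in the ce11 build. The genes lie at 13118977 to 13124406 of chromosome IV on the plus strand (unc-30), 7898434 to 7903334 of chromosome I on the minus strand (unc-55), 11121871 to 11125620 of X on the minus strand (alr-1), 9536465 to 9540966 of chromosome I on the minus strand (irx-1), 5822142 to 5827755 of X on the plus strand (hbl-1) and 11465560 to 11485871 of X on the plus strand (lin-14).

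D-type motor neurons are the GABAergic inhibitory neurons of the ventral and dorsal body wall muscles, and comprise the DD class, born in the embryo, and the VD class, born late in the first larval stage. DD neurons move their output synapses from the ventral to the dorsal side after the first larval stage, while VD neurons do not. UNC-30 and ALR-1 are homeodomain proteins of the Pitx and Aristaless families that act in the specification of these neurons. UNC-55, a nuclear receptor of the COUP-TF family present in VD neurons, blocks remodelling there, and IRX-1, an Iroquois homeodomain protein, promotes it. HBL-1, a zinc finger protein related to Hunchback, and LIN-14, a DNA-binding protein of the heterochronic pathway, set its timing. UNC-30 binds through a bicoid-type homeodomain, whose preferred core is TAATCC.

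The highest region of the set lay upstream of alr-1, and its sequence is shown because it was the member region that passed the authors' threshold. Sequences are from the RefSeq genome of WBcel235, which is ce11. The summit with 100 bases to each side, chrX:11137785-11137985 of ce11, plus strand, holds TAAT 6 times, all on the plus strand, and these are in capitals. The one followed by CC, at 11137966 to 11137971, is TAATCC and begins 81 bp from the summit.
alr-1, highest region: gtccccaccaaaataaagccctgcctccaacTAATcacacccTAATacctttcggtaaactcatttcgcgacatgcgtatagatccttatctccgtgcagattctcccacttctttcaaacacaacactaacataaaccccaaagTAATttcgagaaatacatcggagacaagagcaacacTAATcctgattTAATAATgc
The highest lin-14 region, chrX:11460443-11460643, plus strand, is set beside it because it ranked high in replicate 2 and holds no TAATCC. The shorter core TAAT is found there 3 times on the plus strand and once on the minus strand, where it reads ATTA and overlaps a plus-strand copy.
lin-14, highest region: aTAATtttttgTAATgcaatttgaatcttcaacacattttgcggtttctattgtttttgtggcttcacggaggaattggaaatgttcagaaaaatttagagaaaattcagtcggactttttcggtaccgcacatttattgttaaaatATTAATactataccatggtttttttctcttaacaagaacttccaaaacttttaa
The other TAATCC matches within 100 bp of a pooled summit at alr-1 and hbl-1 are shown with 12 bases to each side and the core in capitals. The bases are those of the plus strand, where a core on the minus strand, as at this alr-1 region, reads GGATTA. The stretches are chrX:11134453-11134482 and chrX:5810228-5810257. The matches at the unc-55 region of rank 23240 and the irx-1 region of rank 17774 are not shown.
alr-1, region of rank 21235: ttttatatacaaGGATTAtaccaaattttg
hbl-1, region of rank 15708: agaagggaaagaTAATCCattagtttcaaa
For comparison, both matches in the promoter region of unc-25, the glutamic acid decarboxylase gene that UNC-30 is known to activate, lie at chrIII:12942532-12942561 and chrIII:12942582-12942611.
unc-25, region of rank 1707, core on the minus strand: aattgctcattgGGATTAtagtcacgcccc
unc-25, region of rank 1707, core on the plus strand: actgagccacagTAATCCttgggggcgggg
The unc-25 matches lay 8 and 58 bp from their summit, the alr-1 matches 81 and 71 bp and the hbl-1 match 32 bp.

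The 6 windows together held 29 pooled regions, 41 of replicate 1 and 38 of replicate 2. A pooled region was present in 5 of the 6 windows, against 96.2% of all protein-coding genes by the same rule. The median was 6 pooled regions per member window and 5 per window over all genes, or 2.50 and 2.80 regions per 10 kb. Among the 1000 highest pooled regions, 1 of the 6 members had a region, which was alr-1, against 16.1% of all genes. It was also the member with a thresholded peak, against 2.45% of all genes. In replicate 1, 1 member had a region among the 1000 highest (alr-1, background 15.7%), and in replicate 2, 2 members had one (alr-1 and lin-14, background 16.0%). The signal, the authors' measure of region height with a scale that is not given in the sources used here, had a median of 14.7 over the 29 regions and 14.2 over all 30000. None of these counts was tested, since the set holds 6 genes chosen with results known.

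Of the 29 regions, 22 lay upstream of the 5′ end, or 75.9%, against 83.4% of all pairs of a gene window and a pooled region, and 7 between the 5′ and the 3′ end. Within 2000 bp upstream there were 2 pooled regions (alr-1 and lin-14), or 6.90% against 12.6%, and within 500 bp upstream 0 against 3.73%. Replicate 1's own list did hold summits 78 bp upstream of unc-55 (rank 16297), 102 bp of lin-14 (27098) and 474 bp of hbl-1 (7834). Replicate 2's list held one 84 bp downstream of the irx-1 5′ end (16406). None of these had a pooled summit or one of the other replicate within 100 bp. The reach of the window favours distant regions for every gene. Locations were taken from protein-coding genes alone, so intergenic means outside these. Of the 29 pooled regions, 18 were intergenic (62.1%, against 43.02% of all pooled regions), 7 in introns (24.1% against 38.4%), 2 in coding exons (6.90% against 12.9%), 2 in 3′ UTRs (6.90% against 4.19%) and 0 in 5′ UTRs (against 1.53%). The body of another protein-coding gene held 4, all in the unc-55 window. Between replicates, 4 of the 29 regions had a summit of both lists within 100 bp, or 13.8% (95% Wilson interval 5.497 to 30.6), against 14.4% of all pooled regions. Replicate 1 alone matched 9 (31.03% against 32.6%), replicate 2 alone 12 (41.4% against 31.7%) and neither 4 (13.8% against 21.3%). The depth of the libraries is unknown, since no file used here gives read counts, and intervals cover counting error over regions only. Replicate 2's list also holds 10 mitochondrial regions, which lie in no window.

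**Figure D1:**
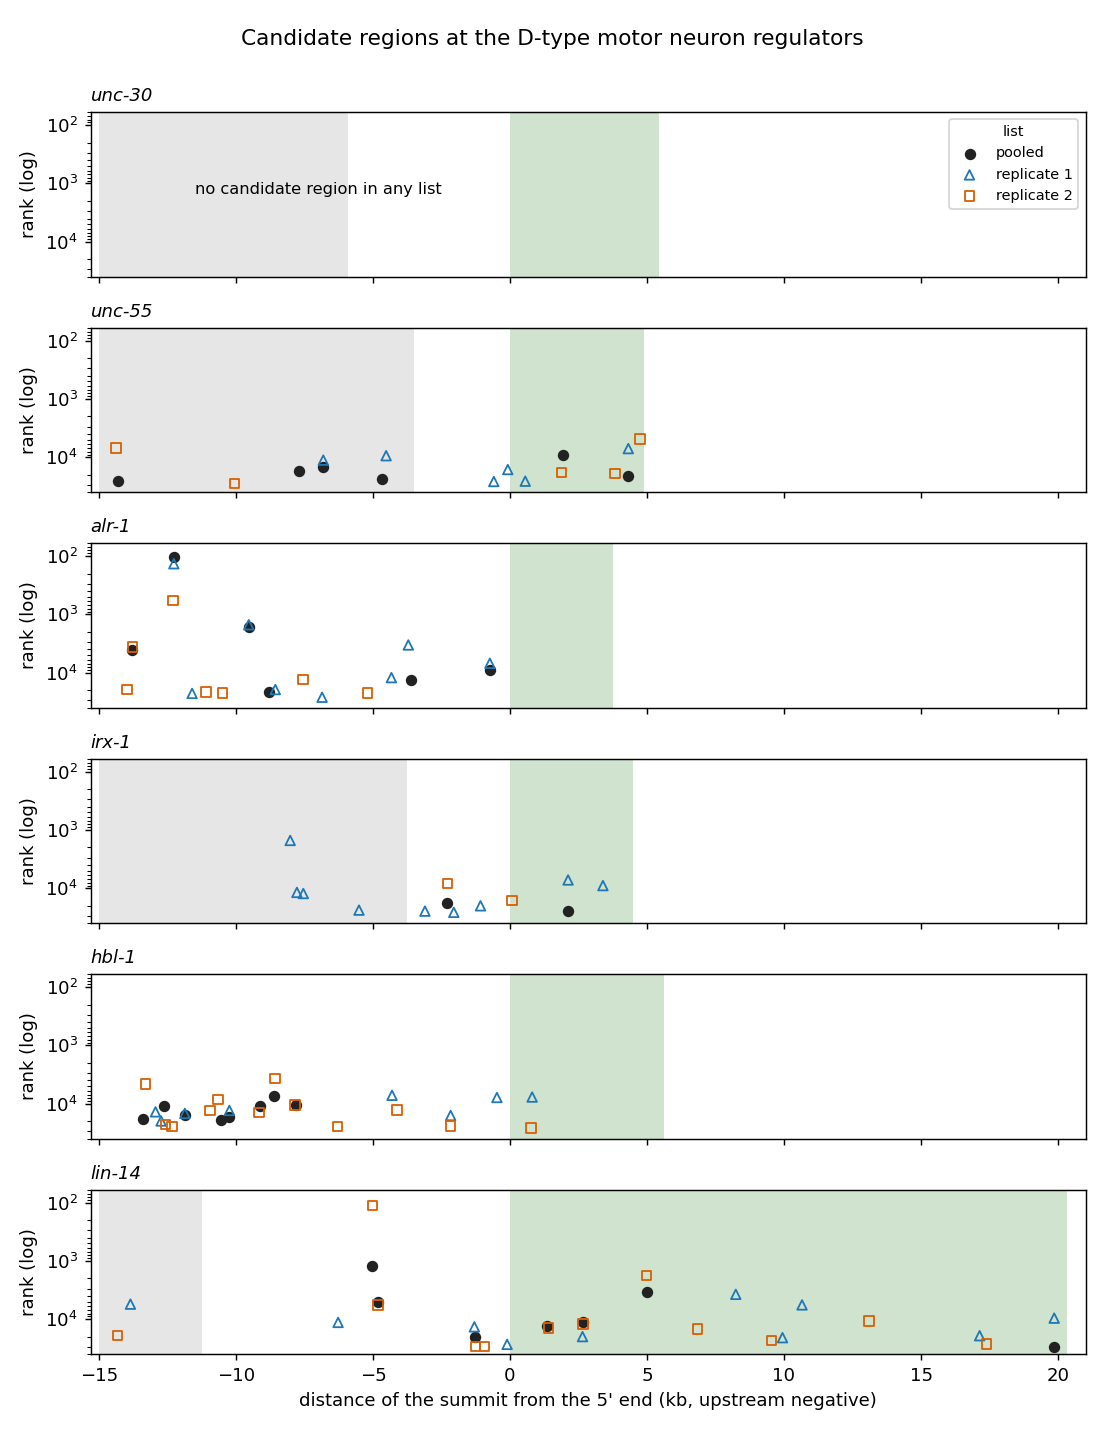
Summits of candidate regions of the pooled list (filled circles), replicate 1 (triangles) and replicate 2 (squares) by distance from the 5′ end in kb, with the rank in each list on a log axis, highest on top. Green marks the gene and grey the part of the window beyond the nearest end of the next gene body upstream; unc-30 has no region, and alr-1 and lin-14 have the regions of rank 105 (pooled) and 113 (replicate 2).

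unc-30 itself, the gene of the tagged factor, had 0 regions in its window in the pooled list, in replicate 1 and in replicate 2. Of all protein-coding genes, 0.961% had an empty window in all 3 lists. The empty part was longer than the window: no summit of any list lay from 13096725 to 13143108 of chromosome IV, a stretch of 46.4 kb that reaches 22252 bp upstream of the 5′ end and 18702 bp beyond the 3′ end. It was number 6 by length of the 86278 stretches between neighbouring summits of the 3 lists together, whose median was 585 bp. In the single lists it was number 13 (pooled, 51.7 kb), 8 (replicate 1, 59.3 kb) and 11 (replicate 2, 46.4 kb). Regions resumed on both sides, with pooled summits 27.2 kb upstream and 24.4 kb downstream of the 5′ end.

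The stretch around unc-30 held 12 protein-coding genes, unc-30 included and with 2 that share the name B0564.9, among them best-2, the next gene upstream (5894 bp away, minus strand), best-1, rde-11 and spe-43. TAATCC occurs 18 times in it, and 8 times in the unc-30 window. Repeated sequence was measured as the share of 31-base words with more than 1 place in the genome, a measure added after the empty stretch was seen. It was 4.46% in the unc-30 gene, 15.2% in its window and 33.7% in the whole stretch, against 8.73% over the genome and at most 0.850% in the other 5 windows. In the 9 other of the 10 longest stretches it ran from 3.12% to 99.2%, with a median of 71.3%. The part of repeated sequence in the empty stretch was not tested. Nor was that of the transgene, whose unc-30 sequence has the same place in the reference as the gene. The lists say that no candidate was placed there, not that UNC-30 was absent.

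**Figure D2:**
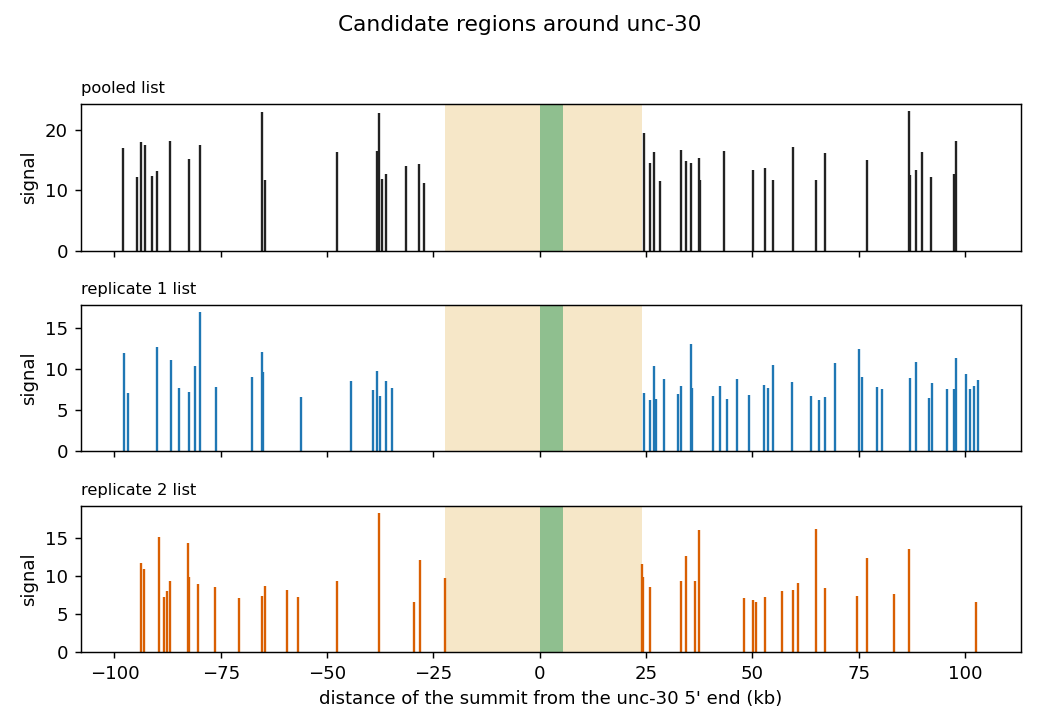
Signal of every candidate region within 100 kb of unc-30 by distance of its summit from the 5′ end in kb, with 1 panel per list. The green band is unc-30 and the beige band the 46.4 kb stretch with no summit in any of the 3 lists.

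alr-1, whose protein acts beside UNC-30 in D-type neurons, had 6 pooled regions, 8 in replicate 1 and 7 in replicate 2. The highest ranked 105 in the pooled list with a signal of 41.1 (11137707 to 11138062 of X), 135 in replicate 1 with 25.9 and 573 in replicate 2 with 17.5. Its summits in the replicates lay 20 bp from each other, so both libraries placed it at the same site. It was intergenic, 12265 bp upstream of the alr-1 5′ end, which is the nearest 5′ end of any protein-coding gene, and the next gene upstream, C05C9.3, lay 17350 bp from alr-1. Its pooled −log10 q was 0.829, a q-value above 0.05, and the lowest signal of a thresholded peak was 39.2. Of all genes, 98.0% had a lower highest pooled signal in the window. All other pooled regions of the 6 windows had a −log10 q from 0.00828 to 0.0601, so their q-values were higher still. The highest lin-14 region, at 0.0502, and the alr-1 region of rank 1632, at 0.0238, are among them.

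The other alr-1 regions were each matched by 1 replicate or by none. The region 9528 bp upstream ranked 1632 (signal 23.3) and 1505 in replicate 1, with no replicate 2 summit within 100 bp. The one 13788 bp upstream ranked 4049 (19.7) and 3642 in replicate 2, with none of replicate 1. Its summit lay slightly nearer to the 5′ end of C05C9.3, at 13412 bp. The regions 715 and 3619 bp upstream had signals of 16.5 and 14.7 and matched replicate 1 alone. The last, 8774 bp upstream, had a signal of 12.6 and no match, and it holds the minus-strand GGATTA shown above. All 6 lay in the intergenic stretch between alr-1 and C05C9.3 and none in the gene.

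unc-55, the VD gene that blocks remodelling, had 6 pooled, 6 replicate 1 and 5 replicate 2 regions, all of low rank. The highest pooled region ranked 9117 (signal 16.4), in an intron 1930 bp downstream of the 5′ end, and was 18399 in replicate 2 with no match in replicate 1. Its summit lay 528 bp from the 5′ end of F55D12.6, which is nearer than that of unc-55. A region in the 3′ UTR (pooled signal 12.6) ranked 7123 in replicate 1, where it was the highest of the window at 10.8. These summits lay 4320 bp downstream of the 5′ end. The highest of replicate 2, at 11.9 and rank 4882, was also in the 3′ UTR, 4737 bp downstream, without a pooled region. Both 3′ UTR places were likewise nearer to the 5′ end of F55D12.6, at 2918 and 3335 bp. None of the 6 pooled regions was matched by both replicates. The other 4 lay upstream, at 4679 to 14316 bp, inside the genes F55D12.5 (3 regions) and F20G4.2 (1 region). The F55D12.5 region 4679 bp upstream, with a signal of 12.1, is the unc-55 region with TAATCC. If the window ends at the next gene body, 3491 bp upstream, 2 pooled regions remain.

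irx-1, the gene that promotes remodelling, had the fewest pooled regions after unc-30, 2, against 9 in replicate 1 and 2 in replicate 2. The higher ranked 17774 (signal 13.4), 2289 bp upstream, 8373 in replicate 2 and had no replicate 1 summit within 100 bp; TAATCC is present. Both the pooled and the replicate 2 region at this place lay nearer to the 5′ end of swah-1, on the other strand. The lower ranked 24996 (11.7), in an intron 2122 bp downstream of the 5′ end, and 7233 in replicate 1. Its summit lay slightly nearer to the 5′ end of C41G7.7, at 2104 bp. Replicate 1's highest region, of rank 1517 and signal 15.1, lay 8016 bp upstream in an intron of swah-1, with no counterpart in replicate 2 or the pooled list. By summits within 100 bp, the replicates thus shared none of their irx-1 regions. The replicate 1 region of rank 25996 does share bases with the replicate 2 region of rank 8373, with summits farther apart.

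hbl-1, the timing gene of the Hunchback family, had 8 pooled regions, the most of the set, and 8 in replicate 1 and 12 in replicate 2. All 8 pooled regions were intergenic, 7812 to 13372 bp upstream, with signals from 12.97 to 17.4. The highest (rank 7270, 8619 bp upstream) matched replicate 2 (rank 3710) and not replicate 1. The region 12630 bp upstream, of signal 15.6, matched both, at ranks 19821 and 22809, though the summits of the replicates themselves lay over 100 bp apart. TAATCC was in the region 11865 bp upstream (signal 14.0), which matched replicate 1 alone. The next gene, F13D11.3, lies 16219 bp upstream, and its 5′ end is nearer than that of hbl-1 for 7 of the 8.

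Close to hbl-1 the replicates shared 2 places that the pooled list does not hold. At 2162 and 2161 bp upstream, summits of replicates 1 and 2 lay 1 bp apart, at ranks 15967 and 24392. In an intron, summits 811 and 777 bp downstream of the 5′ end ranked 7698 and 25984, and these lie 179 and 213 bp upstream of the start of the second annotated transcript. Over the 6 genes, 5 of the 41 replicate 1 regions had a replicate 2 summit within 100 bp (12.2%, 95% Wilson interval 5.32 to 25.5), against 14.1% of all replicate 1 regions. These 5 lay at alr-1 (1), hbl-1 (2) and lin-14 (2).

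lin-14, the heterochronic gene of early larval fates, has the longest window, 35312 bp, and held 7 pooled, 10 replicate 1 and 12 replicate 2 regions. The highest ranked 1229 in the pooled list (signal 24.5), just below the 1000 highest, and 113 in replicate 2 (22.6), where it was the highest region of the set. It lay 5017 bp upstream (11460365 to 11460720 of X, intergenic), and replicate 1 had no summit within 100 bp. A neighbour 4817 bp upstream (pooled 18.9, replicate 2 rank 5716) shares bases with it and was also matched by replicate 2 alone. The same held for the intronic regions 4987 bp (rank 3389, signal 20.4, replicate 2 rank 1787) and 1353 bp (signal 14.8) downstream of the 5′ end.

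Both replicates matched 2 lin-14 regions, of lower rank. One lay in an intron 2670 bp downstream of the 5′ end, at ranks 11052 (pooled, signal 15.6), 19939 and 12051. The other lay 1280 bp upstream, at 19913 (12.9), 13545 and 29523. Replicate 1 alone matched the region in the 3′ UTR, 19858 bp downstream, at a pooled signal of 10.8 and rank 29869, near the end of the list. The 5′ end of spp-9 lay nearer to that summit, at 2366 bp. Replicate 1's own highest region, 8241 bp downstream in an intron (rank 3750, signal 12.6), had no pooled region. None of the 7 pooled regions holds TAATCC within 100 bp, and of the 7 copies in the window 0 lie under a pooled region. The nearest pooled summit to the start of the second annotated transcript, the one in the 3′ UTR, lay 5057 bp from it.

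Across the members the order of the highest signals differed between the lists. In the pooled list it was alr-1 (41.1), lin-14 (24.5), hbl-1 (17.4), unc-55 (16.4) and irx-1 (13.4). In replicate 1 it was alr-1 (25.9), irx-1 (15.1), lin-14 (12.6), unc-55 (10.79) and hbl-1 (10.77). In replicate 2 it was lin-14 (22.6), alr-1 (17.5), hbl-1 (12.6), unc-55 (11.9) and irx-1 (10.4). Neighbours in the pooled order thus changed places in at least 1 replicate for alr-1 and lin-14, for hbl-1 and unc-55 and for unc-55 and irx-1. The highest region of alr-1 was the same in both replicates, while for lin-14, hbl-1, unc-55 and irx-1 the highest region of either replicate had no summit of the other within 100 bp. alr-1 stayed above hbl-1, unc-55 and irx-1 in all 3 lists. Set among all genes, 81.1% had a lower highest pooled signal than lin-14, 34.04% than hbl-1, 27.3% than unc-55 and 10.2% than irx-1.

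**Figure D3:**
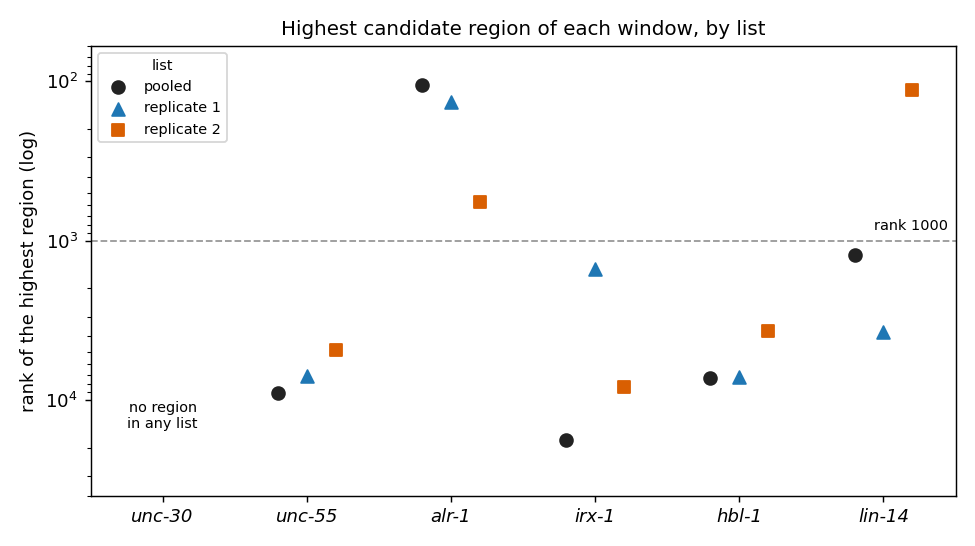
Rank of the highest candidate region of each window in the pooled list and in each replicate, on a log axis with the highest rank on top; the dashed line is rank 1000. The 3 alr-1 ranks are 105, 135 and 573, while those of lin-14 run from 113 to 3750 and those of irx-1 from 1517 to 17774.

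**Figure D4:**
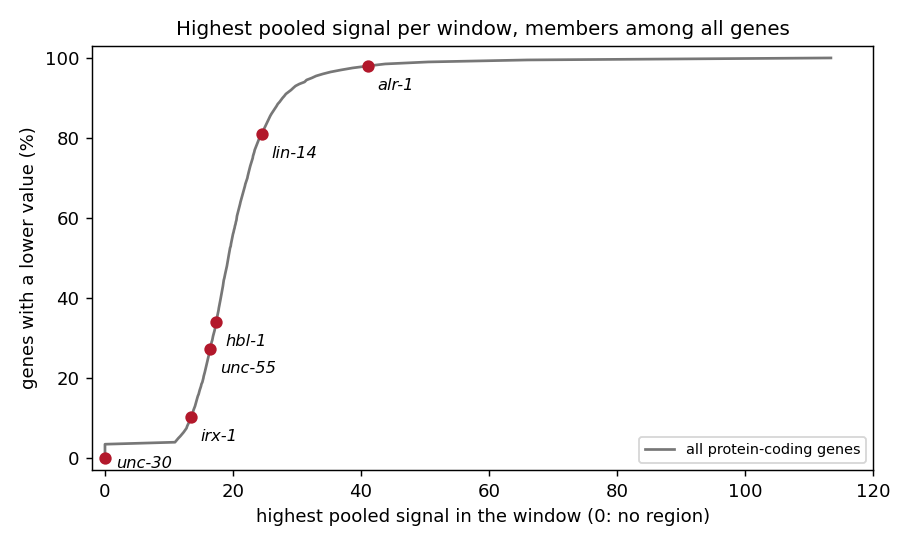
Highest pooled signal in the window (0 where no region was listed) against the share of protein-coding genes with a lower value, for all genes (line) and the 6 members (points). unc-30 is at 0, alr-1 has 98.0% of genes below it and the other members lie between 10.2% and 81.1%.

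TAATCC, searched on both strands within 100 bp of the summit, was present in 5 of the 29 pooled regions, or 17.2% (95% Wilson interval 7.60 to 34.5), and in 7.18% of all pooled regions. The 5 regions were the alr-1 regions of ranks 105 and 21235 and 1 region each at unc-55, irx-1 and hbl-1. These intervals treat regions as independent although they share windows, and they are no test against the background. In replicate 1's regions the share was 14.6% (interval 6.88 to 28.4) against 7.07% over its list, and in replicate 2's 5.26% (interval 1.46 to 17.3) against 6.86%. Within 50 bp of the pooled summits it was 1 of 29 regions, 3.45% against 3.76% over the list, so the other matches lay farther from the summit. TAATC, which is part of TAATCC, was in 37.9% against 31.5%, and the bare homeodomain core TAAT in 96.6% against 90.1%. TAATTA, a palindrome that holds TAAT on both strands, was in 10.3% against 11.5%, and CGCAGGGA, a word noted earlier in peaks of these data, in 0 of 29 against 0.127%. The member windows hold TAATCC 53 times, and 6 of these lie under pooled regions, which cover 7.51% of the windows. alr-1 has the most, with 14 copies in its window, and the other windows have 7 to 9. A match is a description of the sequence and not a binding site.

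**Figure D5:**
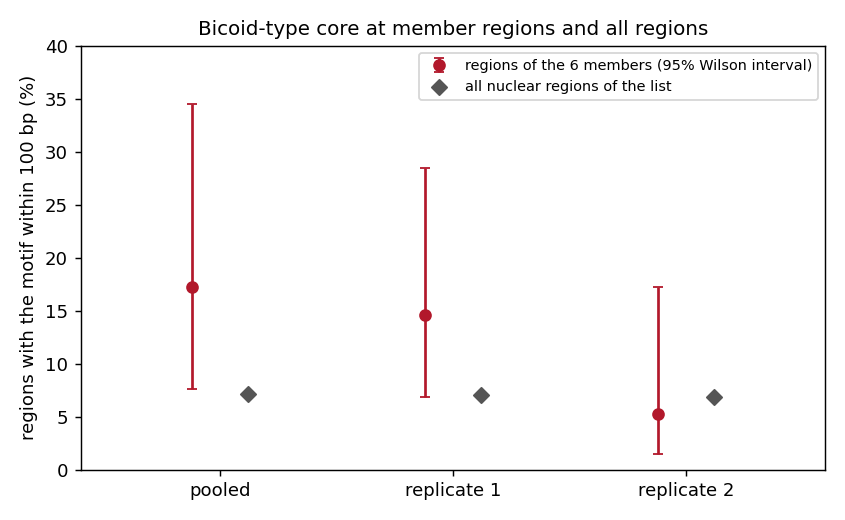
Share of regions with TAATCC within 100 bp of the summit, for the regions of the 6 members (red, with 95% Wilson intervals) and for all nuclear regions of each list (grey diamonds), in percent. The members stand at 17.2%, 14.6% and 5.26% in the pooled, replicate 1 and replicate 2 lists, against 7.18%, 7.07% and 6.86%. The intervals treat regions that share windows as independent and are no test.

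Other genes of the D-type programme were described with the same window. Of 10 genes of D-type function, 10 had a pooled region, 1 was among the 1000 highest and 3 had a region matched by both replicates, beside 96.2%, 16.1% and 49.9% of all genes. The highest were ttr-39, a transthyretin-like gene (signal 27.2, rank 651, 124 bp upstream), unc-25 (23.1, rank 1707, also within 124 bp upstream) and unc-47, the vesicular GABA transporter gene (22.8, rank 1836, 3947 bp upstream in a coding exon of epac-1). TAATCC is in all 3 of these regions, and in the highest region of 4 of the 10 genes. No share over all genes was computed for the highest region, so these counts have no background. Of all pooled regions in the 10 windows, 10 of 50 hold TAATCC, beside 7.18% of all pooled regions. Of the members, 3 of 6 (alr-1, hbl-1 and lin-14) had a region matched by both replicates. The ttr-39 and unc-25 regions ranked 330 and 468 in replicate 1, while in replicate 2 ttr-39 ranked 29061 and unc-25 and unc-47 had no match. The alr-1 region of rank 105 stood above all 3 in the pooled list, and it lay 12265 bp from its gene where those of ttr-39 and unc-25 lay close to the 5′ end.

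Of 11 genes of DD remodelling, 11 had a pooled region, 5 were among the 1000 highest, 1 had a thresholded peak and 7 a region in both replicates, beside 96.2%, 16.1%, 2.45% and 49.9% of all genes. TAATCC was in the highest region of 1 of the 11 genes, again without a background over all genes. It was in 7 of their 105 regions, beside 7.18% of all pooled regions, which is also the background for the lists that follow. The highest were cdk-5, a kinase gene (75.0, rank 19, 65 bp upstream, inside kel-3), unc-43, which encodes the calcium/calmodulin-dependent kinase CaMKII (32.6, rank 259, in an intron), and pct-1, a kinase gene of the same pathway as cdk-5 (28.7, rank 480, in an intron). Among 7 further factors of the lineage and of motor neurons, 1 was among the 1000 highest and 3 had a region in both replicates, beside 16.1% and 49.9% of all genes, and 3 of their 33 regions hold TAATCC. These were led by unc-3, a selector gene of cholinergic motor neurons (28.8, rank 476), cnd-1, a NeuroD-type gene (24.2), and elt-1, a GATA factor gene (19.8). Of 11 heterochronic genes, which include the microRNA genes that repress lin-14 and hbl-1, 3 were among the 1000 highest and 10 had a region in both replicates, beside the same 16.1% and 49.9%, and 2 of their 94 regions hold TAATCC. lin-28, an RNA-binding regulator of larval timing, led them (28.8, rank 477), followed by the let-7 family genes mir-48 and mir-241, which share 1 region (26.0, rank 858). Windows differ in length and some overlap, and longer windows hold more regions, so the lists' counts are no result about the lists.

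For each member with regions, the protein-coding gene with the most similar triple of highest signals (pooled, replicate 1, replicate 2; Euclidean distance of log2 values, 3 values from 2 libraries, windows not overlapping) was looked up. It was tsp-7 for alr-1 (distance 0.12, signals 42.5, 25.04 and 16.4), srh-201 for unc-55 (0.03), fbxb-55 for irx-1 (0.06), srsx-34 for hbl-1 (0.02) and cdc-73 for lin-14 (0.06, signals 24.6, 13.01 and 23.2). These names describe 2 libraries and nothing more.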

How the data were processed

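The lists were used as deposited. Per the accompanying file lists, each replicate's candidate list was made from its alignments and 1 further file, the pooled list from both replicates, and the thresholded list from these by irreproducible discovery rate; no source used here names the aligner, the caller, the control or the scale. The signal (column 7) and the −log10 q-value (column 9) are the authors' own deposited values, and signals were compared within a list and set side by side across lists. Ranks follow the signal. All coordinates are ce11, counted from 1, with the genome sequence of WBcel235 from RefSeq and genes of Ensembl release 115; microRNA genes were matched to RefSeq symbols by identical position. The full 15000 bp upstream was used as the main window, because the rule does not settle whether to stop at the next gene body, and the shorter window was an alternative. Summits within 100 bp counted as matched. Window, matching and motif code (Python 3.11.15, SciPy 1.17.1) was tested on simulated data. The members and lists were chosen with earlier results of these data known, so no test was run, and shares over all genes or regions are given as background. Named genes were the 6 members, the 3 highest of each pathway list with unc-25 and unc-47, neighbours, and the most similar gene of each member. Library depth is unknown. The ce10 lists were not used here.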

Additional observations from a re-analysis of the deposited data

How the results depend on the processing

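No test was run, so the alternatives bear on counts and values. Of the 29 pooled regions, 9 remained with 2000 bp upstream, 9 with the 10000 highest regions and 1 with the thresholded peaks, each a narrower choice by construction; the window to the next gene body gave 25, and the replicates' own lists gave 38 to 41. The count of members among the 1000 highest was 1, and it was 0 with 2000 bp upstream, 2 with the 3000 highest and 1 to 2 in the single replicates, where lin-14 of replicate 2 made the difference. Members with a region in both replicates fell to 1 with the 10000 highest, against 3, and were 2 with summits within 50 bp. Apart from the single replicates, no share over all genes was computed for these changed settings. These member counts thus have no background. The highest signal at alr-1 was 16.5 with 2000 bp upstream. In the replicates' own lists, whose scale may differ, the highest signals were 17.5 to 25.9 (alr-1), 12.6 to 22.6 (lin-14), 10.8 to 12.6 (hbl-1), 10.8 to 11.9 (unc-55) and 10.4 to 15.1 (irx-1). The share with TAATCC was 3.45% within 50 bp, 5.26% to 14.6% in the single replicates, 37.9% for TAATC and 96.6% for TAAT, the last added after seeing the data; the cause of the first was not tested. unc-30 gave no value in any setting, nor hbl-1 with 2000 bp upstream. Distances to the nearest transcript start equalled those to the outermost 5′ end for all 5 highest regions. No paired analysis was possible because there is 1 group. Unknown depth limits all ranks.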

Other observations

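Of the 10 longest stretches without a summit in any of the 3 lists, 5 lay on chromosome V, among them the longest (141 kb) and number 2 (94.2 kb), which holds histone genes such as his-50 and his-49. Chromosome III had 2, of which number 4 (53.04 kb) holds dig-1 and had 22.9% repeated 31-base words. Number 7, on chromosome I (43.7 kb), had 3.12% and number 9, on V (38.3 kb), 7.83%. The stretch around unc-30, at 33.7%, had more than numbers 4, 7 and 9. It had less than numbers 1, 2, 3, 5, 8 and 10, which had 43.8% to 99.2%.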
